A study of Mus musculus with 6 samples.

Results

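The Indian hedgehog and PTHrP loop was followed in the fracture callus through 9 genes, taken by symbol from the 52081 genes that all 6 single-cell libraries list. The genes were the ligands Ihh and Pthlh, their receptors Ptch1 and Pth1r, the signal transducer Smo, the transcription factors Gli1, Gli2 and Gli3, and the decoy receptor Hhip. Each of them was listed in every library.

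In growing cartilage, chondrocytes that are about to enlarge secrete Indian hedgehog (Ihh). The ligand binds Ptch1, which releases Smo from inhibition and lets the Gli factors act on the genome, and Gli1, Ptch1 and Hhip are themselves read out as targets of the signal. In the growth plate the same ligand raises parathyroid hormone-related protein (PTHrP, encoded by Pthlh) in cells near the joint surface, and PTHrP acts through Pth1r on chondrocytes to delay their hypertrophy. Endochondral fracture repair passes through a cartilage callus in which hypertrophic chondrocytes (HTCs) also form.

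The cells came from femoral fracture calluses of 12-week-old mice at 14 days post fracture (dpf), as 3 control libraries and 3 libraries labelled knockout. The controls carry the label wt, and the methods of the study describe them as Piezo1 f/f. The other group is labelled Col2CreERT; Piezo3-/-, where the study's text names Piezo1, and its Cre is driven by Col2a1, so that deletion is aimed at cells that express this cartilage collagen. By the study's methods tamoxifen was given to controls and knockouts alike, 75 mg/kg daily for 5 days starting on day 5. Piezo1, the mechanically gated channel that was targeted, stood at 62.2, 56.4 and 59.6 UMIs per 1000000 UMIs in all cells of the controls and at 95.5, 48.4 and 45.3 in the libraries labelled knockout. The mean of the second group was not lower (63.1 ± 28.2 against 59.4 ± 2.90, SD, exact permutation test, two-sided, p = 1). Knockout libraries 2 and 3 lay below every control and knockout library 1 above every control. The smallest p this test can give is 0.1, so it cannot show that the level was unchanged. In chondrocyte-like, fibrocartilage-like and HTC-like cells together Piezo1 was 67.7, 43.6 and 52.3 against 134.5, 50.1 and 46.6 (exact p = 0.7). A 3′ tag can be counted where deleted exons are missing from the transcript, and the part of this in these levels was not tested. By the study's own account, immunofluorescence staining for Piezo1 verified the knockout. It also reported lower Piezo1 in a cluster of HTCs in its single-cell data. Every direction by genotype below rests on the labels.

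The libraries held 57626530 to 103784364 unique molecular identifiers (UMIs, each standing for 1 captured transcript), with a median of 2554 to 9289.5 per barcode. Of 46944 barcodes, 41705 cells were kept, and 18107 were stromal-like. Cells were clustered without the 9 genes and without the other genes of the pathway list below, and clusters were named from marker genes, so a name ending in "-like" stands for a set of clusters. Any pair of libraries shared 4 to 30 barcode sequences. Levels are given in CPM, the UMIs of a gene per 1000000 UMIs of the cells named, summed per library, in the order of replicates 1 to 3 of a group, and means with their SD are over libraries with at least 20 cells. They are compared within a gene across cells and not between genes. Numbers of cells differed widely: HTC-like cells numbered 105, 17 and 19 in the control libraries and 51, 25 and 440 in the knockout libraries, and knockout library 2 held 16 chondrocyte-like and 11 fibrocartilage-like cells. Every HTC-like mean therefore covers control library 1 and all knockout libraries. Chondrocyte-like and fibrocartilage-like means leave out knockout library 2, so means of different classes rest on unlike sets of libraries. HTC-like cells were named from Col10a1, Mmp13, Pank1 and Rbp4. Col10a1, the collagen of hypertrophic cartilage, was also among the leading genes of both chondrocyte-like clusters, so the border between these classes is one of degree. A cluster of 3744 cells with a median of 766 UMIs stayed unnamed. It entered no marker-named stromal class but is counted among the stromal-like cells.

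Neutrophil-like cells are not a known source of these genes, and their levels serve here as the background that free RNA in the droplets can give. They hold fewer UMIs per cell than most named stromal-like classes, and free RNA may make up a larger share of such cells. A level no higher than theirs therefore does not place a gene at background. Upstream sequences are shown for the hedgehog ligand, for its decoy receptor, whose highest levels were in bone-forming cells, and for the PTHrP receptor, because the members of the loop were high in different cells. They are the 250 bases before the annotated start, 5′ to 3′ on the strand of the gene, from RefSeq on GRCm38.p6, at chr1:74951673-74951922 (minus strand) for Ihh, chr8:80058009-80058258 (minus strand) for Hhip and chr9:110747146-110747395 (minus strand, the first of 3 annotated starts) for Pth1r. Capitals mark CCACCC or its reverse complement GGGTGG, the core of the site that Gli factors are known to bind.
Ihh: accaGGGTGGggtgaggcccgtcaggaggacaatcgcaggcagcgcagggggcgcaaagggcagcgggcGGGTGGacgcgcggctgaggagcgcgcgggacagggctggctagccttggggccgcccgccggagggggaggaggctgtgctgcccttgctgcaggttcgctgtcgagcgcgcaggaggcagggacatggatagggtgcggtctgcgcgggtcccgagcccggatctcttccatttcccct
Hhip: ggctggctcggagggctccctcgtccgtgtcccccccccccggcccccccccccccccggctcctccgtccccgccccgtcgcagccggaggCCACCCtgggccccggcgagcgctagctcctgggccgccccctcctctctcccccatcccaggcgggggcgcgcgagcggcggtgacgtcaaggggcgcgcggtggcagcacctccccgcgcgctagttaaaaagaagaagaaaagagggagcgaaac
Pth1r: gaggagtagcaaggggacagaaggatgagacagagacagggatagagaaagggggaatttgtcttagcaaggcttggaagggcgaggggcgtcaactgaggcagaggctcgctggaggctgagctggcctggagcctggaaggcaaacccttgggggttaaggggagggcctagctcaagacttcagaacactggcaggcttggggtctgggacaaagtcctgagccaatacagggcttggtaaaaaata
The Ihh window held 2 cores and the Hhip window 1, and the Pth1r window held 0. Of the members not shown, Gli2 had 2, Smo, Gli3 and Pthlh had 1 each, and Ptch1 had 0. Such a core was present in 28.1% of 32851 promoter windows of this length. The full motif GACCACCCA, searched on both strands, was in 74 windows (0.225%) and in none of those of the members found in the RefSeq table, which gives no window for Gli1. A match of letters is a description of the window and not a binding site. The genes lie on chromosomes 1 (Ihh at chr1:74945315-74951672 and Gli2 at chr1:118834132-119053619), 6 (Smo at chr6:29735503-29761365 and Pthlh at chr6:147252101-147264183), 8 (Hhip at chr8:79965851-80058006), 9 (Pth1r at chr9:110722085-110747145), 10 (Gli1 at chr10:127329882-127341974) and 13 (Gli3 at chr13:15463235-15730026 and Ptch1 at chr13:63508328-63573598), as protein-coding genes on GRCm38.

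Ihh was concentrated in HTC-like and chondrocyte-like cells. In HTC-like cells it was 1069, 838 and 315 CPM in the controls and 514.5, 188.5 and 1329 in the knockout libraries (775 ± 518, SD, n = 4 libraries). Chondrocyte-like cells held 346, 137 and 182 in the controls and 197, 437 and 377 in the knockout libraries (248 ± 107, n = 5), and HTC-like cells were higher in each of the 3 libraries with at least 20 cells of both. Knockout library 2 went the other way, on 25 HTC-like and 16 chondrocyte-like cells. HTC-like cells gave 52.3% of all 32561 Ihh UMIs and 3.58% of all UMIs of any gene, and chondrocyte-like cells gave 29.3% and 7.31%. Both together gave 72.7% to 84.2% of the Ihh UMIs of a library. HTC-like cells gave the larger share in control library 1 (47.1% against 32.7%) and knockout library 3 (60.6% against 23.6%). Chondrocyte-like cells gave the larger share in control libraries 2 (52.15% against 31.3%) and 3 (55.4% against 24.15%). They also did in knockout libraries 1 (38.5% against 35.15%) and 2 (51.3% against 21.4%).

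**Figure D1:**
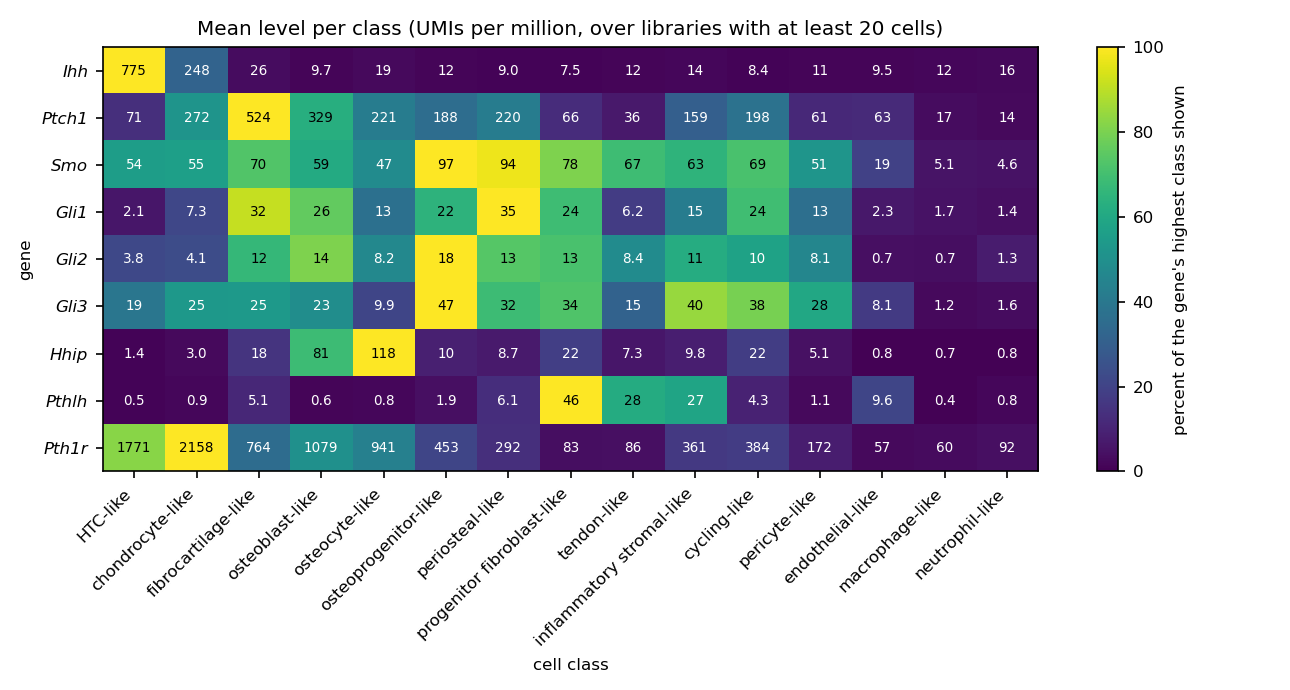
Mean level of each of the 9 genes (rows) in marker-named cell classes (columns). The number in a cell is the mean CPM over libraries with at least 20 cells of the class, and the colour is the percent of the gene's highest class shown. Ihh peaks in HTC-like cells (775), Ptch1 in fibrocartilage-like cells (524), Hhip in osteocyte-like cells (118), Pthlh in progenitor fibroblast-like cells (45.8) and Pth1r in chondrocyte-like cells (2158).

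Fibrocartilage-like cells carried far less Ihh, 39.2, 5.77 and 7.04 in the controls and 33.7, 19.0 and 44.9 in the knockout libraries (26.1 ± 18.4, n = 5). Neutrophil-like cells held 28.8, 2.66 and 1.06 and 23.9, 0 and 37.8 (15.7 ± 16.5, n = 6), and these levels followed the Ihh of the whole library, which was 151, 14.8 and 5.39 and 59.6, 3.99 and 192. The fibrocartilage-like level lay above the neutrophil-like level in 5 of 5 libraries, by 3.12 to 10.3 CPM. In osteoblast-lineage-like cells (osteoblast-, osteocyte- and osteoprogenitor-like) it was above that level in 2 of 6 libraries and in pericyte-like cells in 0 of 6. Within the lineage, osteocyte-like cells were above it in 2 of 5 libraries, by up to 28.5 CPM. Neutrophil-like cells hold fewer UMIs per cell than these cells, so the comparison cannot place Ihh of bone-forming cells at background. Osteoclast-like cells, with a median of 16150 UMIs, held 7.29 ± 9.59 CPM (n = 6). Osteoblast-like cells held 9.73 ± 10.7 (n = 6) and osteocyte-like cells 18.6 ± 16.8 (n = 5). T- and NK-like cells came next to chondrocyte-like cells in mean level (39.4 ± 64.9, n = 6) from 57 UMIs in 838 cells, with 166.9 in knockout library 3.

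A UMI of Ihh was found in 91.8% of HTC-like cells (603 of 657, median 20240 UMIs per cell), 61.8% of chondrocyte-like cells (median 21080) and 2.86% of neutrophil-like cells (median 2247). After thinning each cell to 1000 UMIs these shares were 51.9%, 20.7% and 1.01%, with 0, 156 and 447 shallower cells left out. Fibrocartilage-like cells went from 25.6% to 2.34% and osteoblast-like cells from 8.20% to 1.04% once thinned, the latter close to the share in neutrophil-like cells. The HTC-like and chondrocyte-like shares remained far above the neutrophil-like share at equal depth. Thinning keeps the fraction of free RNA in a cell, so it cannot place the osteoblast-like share at background.

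**Figure D2:**
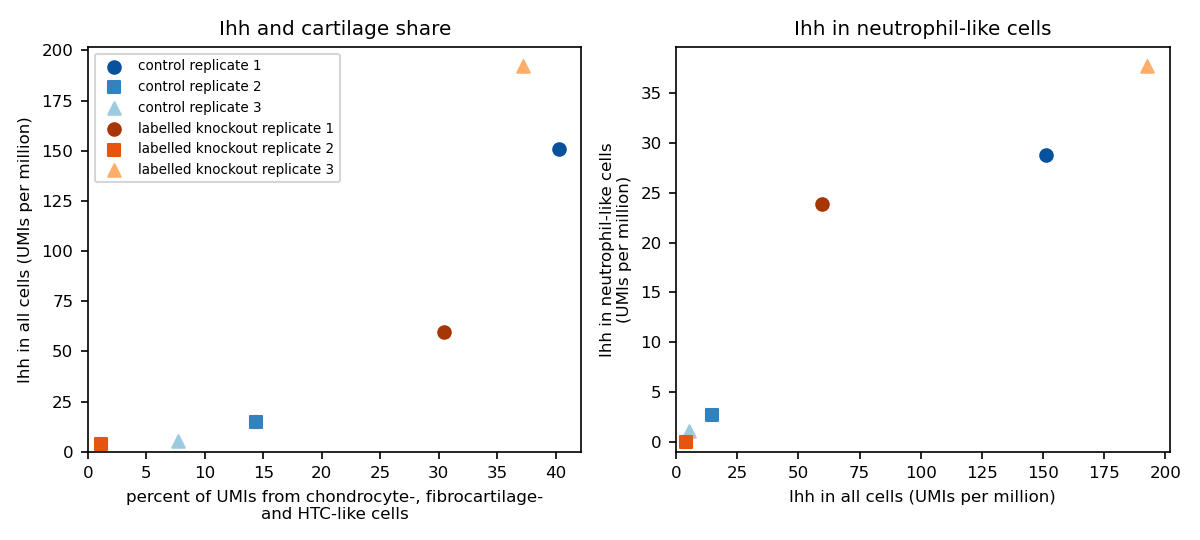
Ihh in all cells of a library (CPM, y axis of the left panel) against the percent of the library's UMIs that came from chondrocyte-, fibrocartilage- and HTC-like cells (x axis), and Ihh in neutrophil-like cells against Ihh in all cells (right panel), 1 point per library, coloured by label. The libraries with 30.4% to 40.3% of their UMIs from these cells (control 1, knockout 1 and knockout 3) are the 3 with the highest Ihh in all cells, and they also have the highest Ihh in neutrophil-like cells.

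Pthlh was low everywhere and was held by other cells than Ihh. Progenitor fibroblast-like cells, named from Dpt, Cd34, Clec3b, Ly6a and Pi16, had 57.9, 35.4 and 20.4 CPM in the controls and 11.8, 43.6 and 105.7 in the knockout libraries (45.8 ± 33.6, n = 6). Inflammatory stromal-like cells, which carry Saa3 and Mmp3, had 84.0, 19.8 and 34.4 against 10.3, 1.26 and 10.6 (26.7 ± 30.2), and tendon-like cells 60.1, 8.84 and 15.4 in the 3 libraries with enough cells (28.1 ± 27.9). Progenitor fibroblast-like and tendon-like cells, the neighbours at the top of the order, were not apart in every library. Endothelial-like cells held 7.41, 21.8 and 8.98 against 11.4, 2.55 and 5.51 (9.61 ± 6.69), against 0.754 in neutrophil-like cells.

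Of 2960 Pthlh UMIs pooled over libraries, inflammatory stromal-like cells gave 29.2% from 6.97% of all UMIs. Endothelial-like cells gave 20.6% from 11.8%, and progenitor fibroblast-like cells 19.1% from 2.69%. Pooled shares weigh libraries by their cells. Control library 3 held the most inflammatory stromal-like cells (1017) and control library 2 the most endothelial-like cells (1980). The 2 clusters behind the inflammatory stromal-like class differed. The one led by Cxcl5 and Saa3 (1104 cells) stood at 38.2 ± 41.9 CPM over 6 libraries, and the one led by Chil1 and Saa1 (453 cells) at 0.403 ± 0.649 over 5. A UMI was found in 26.5% of progenitor fibroblast-like cells (median 13270 UMIs) and in 0.112% of neutrophil-like cells, and in 4.68% and 0.0591% after thinning. In HTC-like cells 9 UMIs were counted in 657 cells (0.468 ± 0.423 CPM), at the neutrophil-like level, and chondrocyte-like cells had 0.871.

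Ptch1, the receptor that is also raised by the signal, was highest in fibrocartilage-like cells. These held 733, 330 and 600 CPM in the controls and 607, 196.5 and 351 in the knockout libraries (524 ± 176, n = 5) and gave 36.1% of 65250 Ptch1 UMIs from 10.3% of all UMIs. Osteoblast-like cells had 479, 285 and 360 against 545, 53.3 and 248 (329 ± 176, n = 6), below fibrocartilage-like cells in 5 of 5 libraries. Chondrocyte-like cells had 240.3, 190.3 and 487 against 295, 91.2 and 148 (272 ± 132), and osteoblast-like and chondrocyte-like cells were not apart. HTC-like cells had the highest mean level of Ihh and were low in its receptor. They held 89.1, 91.1 and 219 against 83.0, 69.5 and 42.9 (71.1 ± 20.6, n = 4). This was below inflammatory stromal-like cells (159 ± 48.0) in 4 of 4 libraries. The mean and this count leave out control libraries 2 and 3, with 17 and 19 HTC-like cells. Neutrophil-like cells had 14.2.

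Pth1r, the receptor for PTHrP, was high along both the cartilage and the bone lineage. Chondrocyte-like cells had 2824, 1519 and 1452 CPM in the controls and 2543, 4102 and 2450.0 in the knockout libraries (2158 ± 629, n = 5). HTC-like cells followed with 2282, 1880.0 and 1350.0 against 1869, 1302 and 1629 (1771 ± 413, n = 4), lower than chondrocyte-like cells in 3 of 3 libraries, and osteoblast-like cells with 1065, 937 and 1027 against 1170.0, 999 and 1274 (1079 ± 123, n = 6), lower than HTC-like cells in 4 of 4. Osteoblast-like cells were the most even of the 3, with no library outside 937 to 1274. Osteocyte-like cells (941 ± 369) and osteoblast-like cells were not apart, and fibrocartilage-like (764 ± 292) and osteoprogenitor-like cells (453 ± 165) came next, with osteocyte-like above fibrocartilage-like cells in 4 of 4 libraries and fibrocartilage-like above osteoprogenitor-like cells in 5 of 5. Progenitor fibroblast-like cells, where Pthlh was highest, had 83.4 ± 36.3. Neutrophil-like cells, which hold few UMIs each, had 92.5 ± 72.7, and the deeper osteoclast-like cells 40.7 ± 27.9. A UMI of Pth1r was found in 99.2% of HTC-like cells, 94.3% of chondrocyte-like cells and 96.7% of osteoblast-like cells (median 14340 UMIs), against 15.7% of neutrophil-like cells. Thinned to 1000 UMIs, the chondrocyte-like share was 81.2%, the osteoblast-like share 63.4% and the neutrophil-like share 6.46%.

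**Figure D3:**
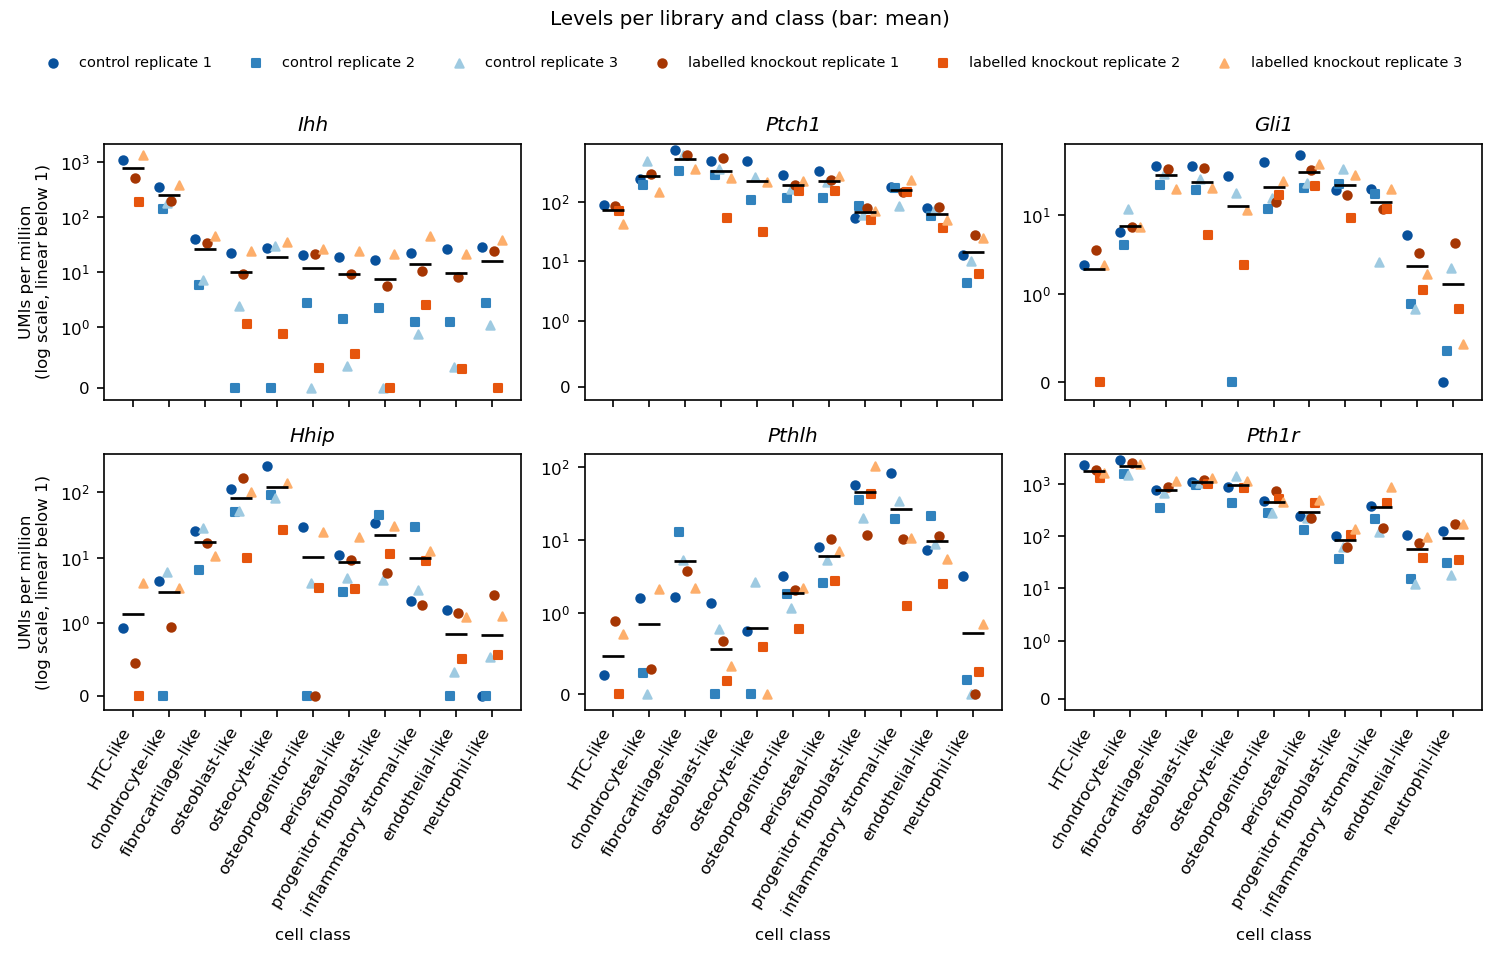
Levels of Ihh, Ptch1, Gli1, Hhip, Pthlh and Pth1r (CPM, log axis that is linear below 1) by cell class, 1 dot per library with at least 20 cells, coloured by label, with a bar at the mean. Ihh drops from 248 in chondrocyte-like to 26.1 in fibrocartilage-like cells, while Pth1r spans 764 to 2158 over the same cartilage classes.

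Smo, which passes the signal on when Ptch1 is bound, was spread over the stroma. Osteoprogenitor-like cells had 124.8, 87.0 and 90.9 CPM in the controls and 99.5, 98.3 and 80.2 in the knockout libraries (96.8 ± 15.5, n = 6), periosteal-like cells 94.3 ± 17.8 and progenitor fibroblast-like cells 78.0 ± 6.65. Adjacent classes in this order were not apart until chondrocyte-like (54.5 ± 9.83) and HTC-like cells (53.8 ± 18.2), which differed in the same direction in 3 of 3 libraries. Endothelial-like cells had 18.6 and neutrophil-like cells 4.62.

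Gli1, whose level rises where the signal is received, was highest in periosteal-like cells, with 57.2, 21.8 and 25.7 CPM in the controls and 36.8, 23.1 and 43.7 in the knockout libraries (34.7 ± 13.97, n = 6). Fibrocartilage-like cells had 41.95, 24.0 and 33.2 against 37.8, 6.34 and 21.6 (31.7 ± 8.76, n = 5), and osteoblast-like cells 26.4 ± 13.3, and these neighbours were not apart. HTC-like cells had 2.32, 0 and 3.43 against 3.61, 0 and 2.34 (2.07 ± 1.51, n = 4), close to the 1.36 of neutrophil-like cells, and chondrocyte-like cells 7.33 ± 2.90. Gli1 was thus lowest among the cartilage classes where Ihh was highest.

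Gli2, the main activator among the Gli factors, had its highest mean in osteoprogenitor-like cells, with 29.0, 21.8 and 10.5 CPM against 8.29, 18.6 and 17.2 (17.6 ± 7.56, n = 6). Osteoblast-like cells had 14.2 ± 6.18, chondrocyte-like cells 4.06, HTC-like cells 3.79 and neutrophil-like cells 1.31. Gli3, which acts mostly as a repressor when the signal is absent, was also highest in osteoprogenitor-like cells, with 50.7, 66.1 and 68.1 against 45.6, 32.2 and 21.1 (47.3 ± 18.5). Inflammatory stromal-like cells came next with 40.0 ± 13.2, and these neighbours were not apart. Chondrocyte-like cells had 25.3 ± 7.71 and HTC-like cells 18.6 ± 7.92 of Gli3, against 1.61 in neutrophil-like cells.

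Hhip, which binds hedgehog ligands and takes them out of reach of Ptch1, was highest in the bone-forming cells. Osteocyte-like cells had 253.5, 91.3 and 80.6 CPM in the controls and 651 (from 9 cells), 26.1 and 138 in the knockout libraries (118 ± 85.6, n = 5), and osteoblast-like cells 109.5, 49.9 and 51.3 against 164.9, 10.0 and 99.8 (80.9 ± 54.9, n = 6). Osteocyte-like cells were higher in 5 of 5 libraries. They were named from Phex, Pdpn and Dmp1, while Mepe, Sost and Fgf23 of the same marker list did not pass. Car3, Ifitm5 and Lipc were among the leading genes of both the osteocyte-like and the osteoblast-like cluster, so the border between these classes is one of degree. The osteoblast lineage gave 51.3% of 4794 Hhip UMIs from 11.8% of all UMIs. Fibrocartilage-like cells, where Ptch1 was highest, had 17.6 ± 9.49 of Hhip, and chondrocyte-like and HTC-like cells had 2.97 and 1.36, against 0.840 in neutrophil-like cells.

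In single cells with at least 5000 UMIs, ligand and response genes were looked for together. Of 570 HTC-like cells with a UMI of Ihh, 99.8% had one of Pth1r, 54.6% of Ptch1, 5.79% of Gli1 and 1.40% of Pthlh. Of the 46 without one of Ihh, 95.7% had one of Pth1r, 56.5% of Ptch1, 2.17% of Gli1 and 2.17% of Pthlh. These differences were not tested. Of 707 fibrocartilage-like cells with a UMI of Gli1, 97.9% had one of Ptch1, and of 1218 without, 89.2%. The former had a median of 25580 UMIs and the latter 17130, and the part of this depth in the difference was not tested.

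Classes were then compared within libraries with edgeR's quasi-likelihood test, with the library as a block. The classes come from clusters made from other genes of the same cells, so these comparisons describe the distance between classes and test no condition. The reference was chondrocyte-like and fibrocartilage-like cells together. HTC-like cells differed from it in 35.7% of 12083 genes, and 7 of the 8 members tested differed, 1 higher and 6 lower. Mean Ihh within the reference was 248 CPM in chondrocyte-like and 26.1 in fibrocartilage-like cells, and a difference from chondrocyte-like cells alone was not tested. Against both together, Ihh was higher by 2.37 ± 0.63 on the log2 scale (SE, adjusted p = 0.0322). By library the difference was 2.66, 3.83 and 2.76 in the controls and 2.28, -0.77 and 2.84 in the knockout libraries. The call held in 9 of 15 alternative settings, with adjusted p from 1.11e-34 to 0.17. It was lost when control library 1 (0.0911), control library 2 (0.0772), control library 3 (0.0739), knockout library 1 (0.086) or knockout library 3 (0.0975) was left out, and without knockout library 2, the 1 library that went the other way, the difference was 2.81 (adjusted p = 4.68e-08).

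The response genes were lower in HTC-like cells than in this reference. Within the reference, fibrocartilage-like cells held more of them than chondrocyte-like cells. Mean CPM was 31.7 against 7.33 for Gli1, 524 against 272 for Ptch1 and 17.6 against 2.97 for Hhip. HTC-like cells had 2.07, 71.1 and 1.36, and a difference against chondrocyte-like cells alone was not tested. Gli1 was at -3.07 ± 0.23 (adjusted p = 6.2e-08), Ptch1 at -2.06 ± 0.23 (1.4e-05) and Hhip at -2.35 ± 0.48 (0.00359), each lower in 6 of 6 libraries and called in every alternative that could be fitted. HTC-like cells held only 38 UMIs of Gli1 and 38 of Hhip, and 0 of each in the lowest library. Hhip stood at 0.309 ± 0.536 CPM in the controls and 1.51 ± 2.23 in the knockout libraries (SD, n = 3 each). Where a library held no UMI, its difference rests on the 0.5 added to each count. The log2 difference of Hhip was -4.41 without knockout library 3 and -1.48 at a clustering resolution of 1.2. Smo was at -0.56 ± 0.14 (0.00522), lower in 5 of 6 libraries, and was called in 13 of 15 alternatives (0.000578 to 0.127), not without the library block (-0.52, 0.127) or without replicate 3 of both groups (-0.5, 0.079). Gli2 was at -0.78 ± 0.24 (0.0195) and was called in 10 of 15 alternatives (0.00152 to 0.159). With 1 library left out, it lost its call without knockout library 1 (-0.63, adjusted p = 0.0965) or knockout library 3 (-0.91, 0.0631). Gli3 was at -0.55 ± 0.18 (0.0245) and was called in 9 of 15 alternatives (0.00129 to 0.291). With 1 library left out, it lost its call without control library 1 (-0.67, 0.0549), knockout library 1 (-0.60, 0.0629) or knockout library 3 (-0.34, 0.265). Pth1r was at 0.16 ± 0.29 and did not pass the test (0.727), and Pthlh had too few UMIs to be tested.

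**Figure D4:**
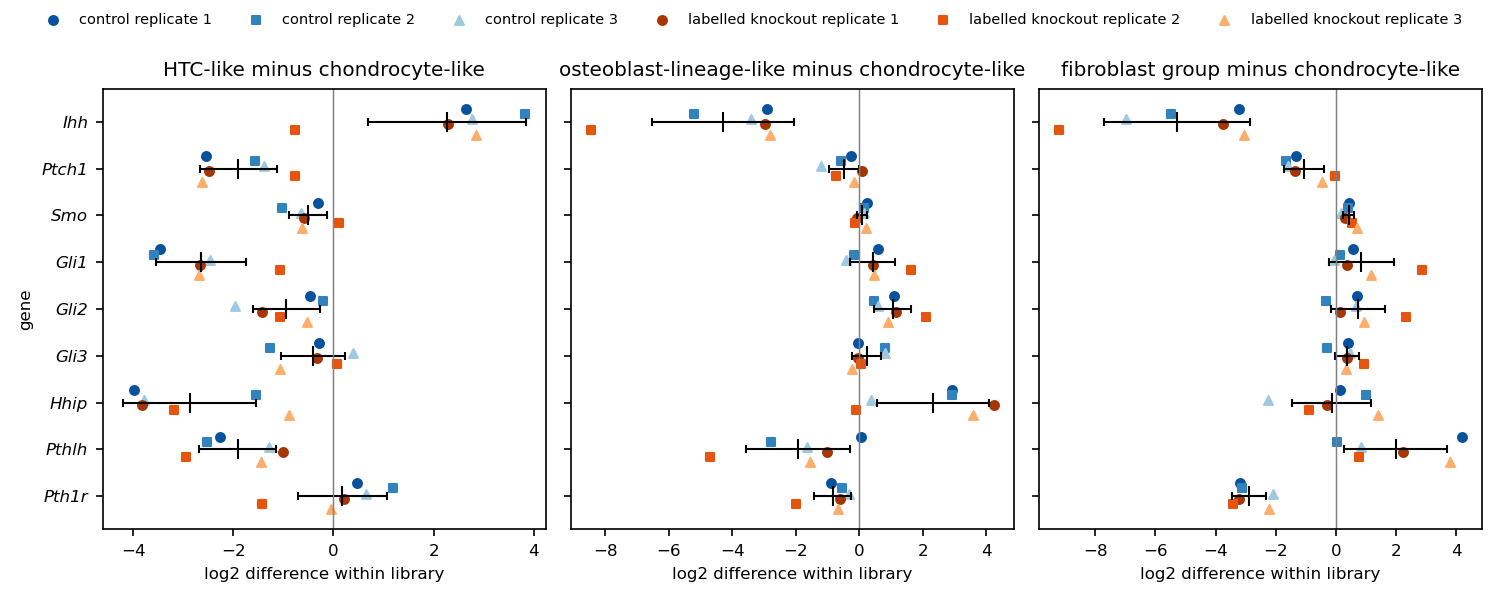
Log2 difference in level between HTC-like (left), osteoblast-lineage-like (middle) or fibroblast-group-like (right) cells and chondrocyte- and fibrocartilage-like cells of the same library, for the 9 genes, 1 dot per library, coloured by label, with the mean ± SD as a bar. Gli1, Ptch1 and Hhip lie below 0 in all 6 libraries on the left, and Ihh lies above 0 in 5 of 6.

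Osteoblast-lineage-like cells differed from the same reference in 36.5% of 13267 genes and in 6 of 9 members, 2 higher and 4 lower. Hhip was higher by 2.65 ± 0.57 (adjusted p = 0.0108), in 5 of 6 libraries, and Gli2 by 0.75 ± 0.17 (0.00575), in 6 of 6. Ihh was at -4.07 ± 0.77 (0.00602), Pthlh at -1.95 ± 0.49 (0.0111) and Pth1r at -0.98 ± 0.17 (0.00115), and Ihh and Pth1r were lower in 6 of 6 libraries. Without integration Pth1r was at -0.34 and lost its call (0.341, within 1.69e-10 to 0.341), Gli2 lost its call when no doublets were removed (0.50, 0.0555, within 0.000693 to 0.0555), and Pthlh lost its call without replicate 3 of both groups (-2.07, 0.0947, within 6.24e-05 to 0.0947). Ptch1 was at -0.61 ± 0.16 (0.0133) and was called in 9 of 15 alternatives, with adjusted p from 8.1e-05 to 0.378. Smo (-0.04 ± 0.08), Gli1 (0.11 ± 0.18) and Gli3 (0.08 ± 0.15) did not pass the test.

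The fibroblast group (progenitor fibroblast-, periosteal- and tendon-like cells) differed in 45.1% of 13871 genes and in 4 of 9 members, 1 higher and 3 lower. Pthlh was the member that was higher, by 2.07 ± 0.62 (adjusted p = 0.0293), in 6 of 6 libraries by 0.04 to 4.18. It was called in 11 of 15 alternatives (2.93e-30 to 0.126). With 1 library left out, its call was lost without control library 1 (1.5, 0.0984), knockout library 1 (2.08, 0.0657) or knockout library 3 (1.6, 0.0933). The classes of the group differed in mean Pthlh: 45.8 CPM in progenitor fibroblast-like, 28.1 in tendon-like and 6.08 ± 3.11 in periosteal-like cells (SD). Fibrocartilage-like cells of the reference held 5.14 ± 4.52. Ihh was at -4.49 ± 0.57 (0.000513), Pth1r at -3.16 ± 0.20 (6.62e-07) and Ptch1 at -1.38 ± 0.19 (0.000184). The Ptch1 receptor was thus lower in fibroblast-group cells than in chondrocyte-like and fibrocartilage-like cells together, while Gli1 at 0.25 ± 0.17 (0.252) did not pass the test. HTC-like cells, which are outside this reference, held 71.1 ± 20.6 CPM of Ptch1 (SD, n = 4). Within the group, periosteal-like cells held 220.5 ± 79.2 (n = 6). Smo (0.15 ± 0.08), Gli2 (0.22 ± 0.19), Gli3 (0.04 ± 0.12) and Hhip (-0.23 ± 0.43) did not pass it either. The count of 4 in 9 was close to the share of all genes called and is no result about the members as a set. The sign of Hhip depended on the cells taken: it was 1.46 (adjusted p = 0.0171) with the stricter filter on cells and 1.1 (0.0358) without integration, within 0.0171 to 0.973 over its alternatives.

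The other genes of the pathway were taken from a list of 65 genes in 8 groups. In HTC-like cells 8 were higher and 16 lower of 52 tested, where 35.7% of all genes were called, with a median log2 difference of -0.14 against 0.02 over all genes. The receptors that help Ptch1 bind ligand were lower as Ptch1 was: Gas1 at -2.67 ± 0.34, Cdon at -1.56 and Boc at -1.48 were the 3 co-receptors tested, and all 3 were called. Among the hedgehog-responsive genes 1 was higher and 4 lower of 7, with the retinoic acid-degrading enzyme Cyp26b1 at -2.52 and the survival gene Bcl2 at 1.46. Scube3, a secreted protein of the family that helps release hedgehog ligands, was higher by 3.48 ± 0.49 (adjusted p = 0.0022). Rgs2, a regulator of G-protein signalling, was higher by 1.28, and Pde3a, a phosphodiesterase, was lower at -2.45, among 2 higher and 4 lower of 13 genes of Pth1r signalling.

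In osteoblast-lineage-like cells 10 genes of the list were higher and 17 lower of 55, where 36.5% of all genes were called (median -0.05 against 0.01 over all genes). Among the higher genes were Rgs2 at 1.69 and Gas1 at 1.47, and the lowest were Cyp26b1 at -2.56, Cdon at -2.36 and Scube2 at -2.08. In the fibroblast group 17 were higher and 15 lower of 54, where 45.1% of all genes were called (median 0.10 against -0.02). There Rgs2 (2.80), Gas1 (2.65) and Scube2 (2.59) were the highest, and the hypertrophy factor Mef2c (-2.56), Scube3 (-2.26) and the survival gene Bcl2l1 (-1.28) the lowest. Of the cilium genes, on which the signal depends, 1 was higher and 0 lower of 6 in HTC-like cells and in the fibroblast group and 0 higher and 2 lower of 6 in the osteoblast lineage, where 36.5% of all genes were called, so nothing is read from these counts.

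Over 58 points, each a stromal class in a library, the members' levels (log2 of CPM plus 1, centred within each library) were set against each other and against 8811 genes. The points share libraries and classes, so the values are descriptions. Ihh was most like Col10a1 (r = 0.908), a marker used to name HTC-like cells, Slc38a3 (0.870) and Prkg1 (0.869). Pthlh was most like Apbb1ip (0.877), Axl (0.874) and Cd34 (0.866), of which Cd34 was a marker used to name progenitor fibroblast-like cells. Pth1r was most like Slc8a3 (0.94), Panx3 (0.937) and Tmie (0.926), and Gli1 was most like Lum (0.795), Limd1 (0.778) and Slc40a1 (0.760). Panx3 was on the marker list of HTC-like cells and Lum on that of stromal-like cells. Among the members, Pthlh and its receptor Pth1r ran opposite (r = -0.801), Gli1 and Gli2 ran together (0.778), and so did Ihh and Pth1r (0.651), while Ihh and Ptch1 showed little relation (0.052).

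By genotype label, none of the members passed a test. In all cells of a library, Pthlh was 11.5, 8.58 and 10.7 CPM in the controls and 5.57, 1.14 and 5.13 in the libraries labelled knockout (10.3 ± 1.51 against 3.94 ± 2.44, SD, n = 3 each). The difference of -6.32 had a two-sided exact permutation p of 0.1, the smallest that 20 assignments allow, and 0.9 after adjustment over the 9 members. Every knockout library lay below every control library. This held for 1 of 9 members, Pthlh, where 3.94% of all genes had it, and in stromal-like cells (13.4, 7.04 and 18.1 against 6.22, 1.54 and 6.32) again for Pthlh alone of the 9, where 2.57% of genes had it. Members with every knockout library above the controls numbered 0 in all cells (0.606% of genes) and 0 in stromal-like cells (1.33%). The group means of Pthlh did not point the same way in every class. Control and knockout means were 46.1 ± 33.6 and 7.39 ± 5.31 in inflammatory stromal-like cells and 12.7 ± 7.90 and 6.48 ± 4.50 in endothelial-like cells. In progenitor fibroblast-like cells they were 37.9 ± 18.8 and 53.7 ± 47.8, where only knockout library 3 lay above every control. The groups overlapped in endothelial-like and progenitor fibroblast-like cells. A difference in direction between these classes was not tested. The part of the cell make-up of a library in its Pthlh level was not tested.

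The same count was made in the 9 stromal classes with at least 10 cells in every library, over 73 pairs of a member and a class with enough UMIs, and the groups did not overlap in 5 pairs, with 4 lower and 1 higher in the knockout libraries. Each of the 5 was a different member in a different class. Pthlh was lower in inflammatory stromal-like cells (2.42% of genes lower and 2.22% higher), of which control library 3 gave 1017 of 1557 cells. Gli3 was lower in osteoprogenitor-like cells, where 9.01% of genes were lower and 2.53% higher, and Gli2 in progenitor fibroblast-like cells at 12.9, 16.6 and 18.2 CPM against 8.70, 9.19 and 9.61 (3.27% and 3.82%). Ptch1 was lower in HTC-like cells (1.98% and 3.08%), on 17 and 19 cells in control libraries 2 and 3, and Pth1r was higher in fibrocartilage-like cells (4.42% and 1.86%), where knockout library 2 held 11 cells. In chondrocyte-like (4.08% and 2.52%), osteoblast-like (4.47% and 3.32%), periosteal-like (2.25% and 2.96%) and cycling stromal-like cells (2.29% and 3.53%) the groups overlapped for every member counted. The count of 5 in 73 pairs was close to what the shares of all genes in these classes give, and is no result about the members. No test was run of these separations in single classes.

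**Figure D5:**
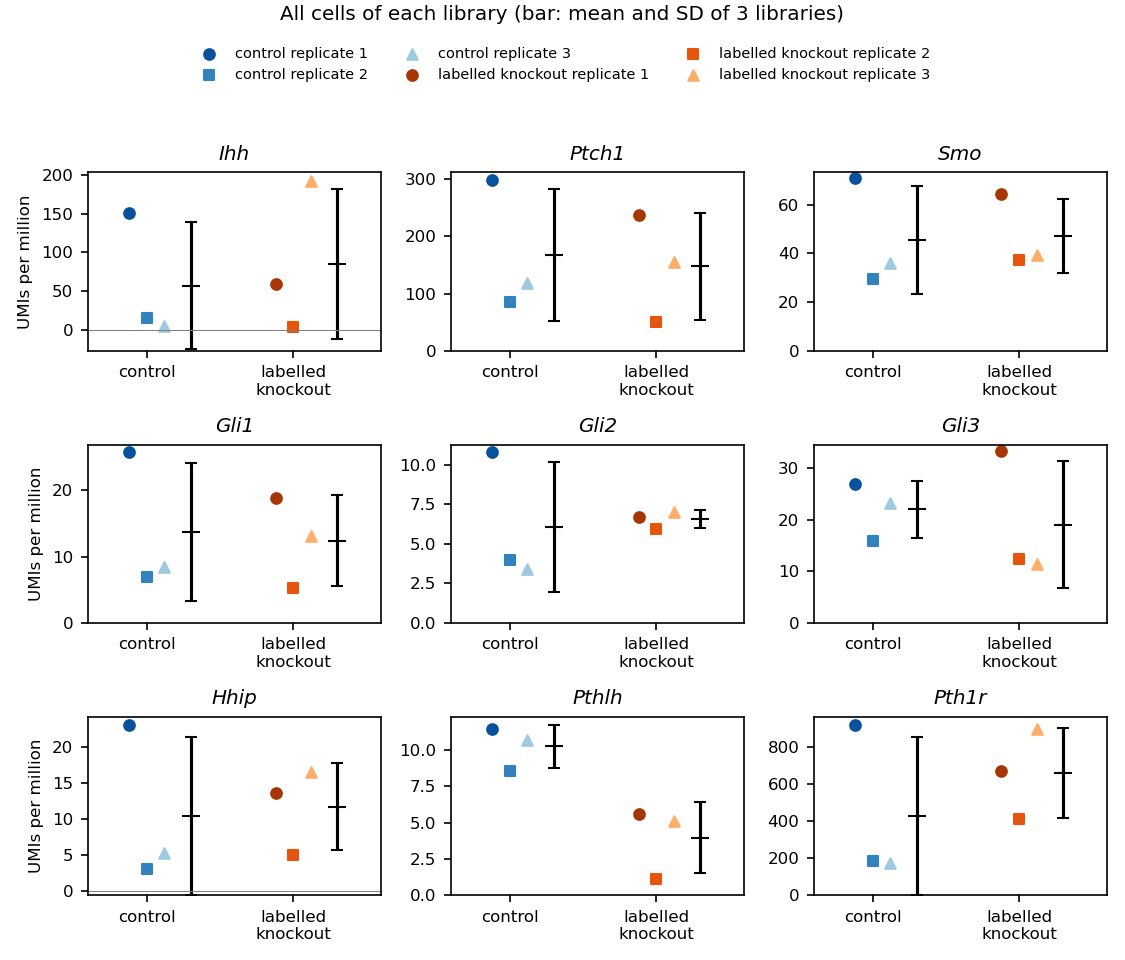
Level of each of the 9 genes in all cells of a library (CPM, each panel with its own axis), 1 dot per library, for control and knockout-labelled libraries, with the mean and SD. Only for Pthlh do the groups not overlap (8.58 to 11.5 against 1.14 to 5.57).

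The other ligand had an SD above its mean in both groups. Ihh in all cells was 57.1 ± 81.6 in the controls and 85.3 ± 96.8 in the knockout libraries (exact p = 0.7), and the share of UMIs from chondrocyte-, fibrocartilage- and HTC-like cells moved with it, at 40.3%, 14.4% and 7.67% in the controls and 30.4%, 1.099% and 37.2% in the knockout libraries. The libraries had the same order in both, except that control library 1 and knockout library 3 changed places at the top, and the part of this share in the Ihh level by label was not tested. Pth1r was 920, 184 and 174 against 670, 412 and 898 (exact p = 0.6). Ptch1 was 299.6, 84.9 and 119 against 237, 50.4 and 155 (exact p = 0.9), Smo 70.9, 29.6 and 36.1 against 64.6, 37.4 and 39.3 (p = 0.8), and Hhip 23.0, 3.10 and 5.27 against 13.7, 5.0 and 16.6 (p = 0.9). All of these groups overlapped. Gli1 was 25.8, 6.91 and 8.49 against 18.9, 5.24 and 13.2 (exact p = 0.8), Gli2 10.8, 3.97 and 3.39 against 6.67, 5.92 and 7.03 (p = 1) and Gli3 26.8, 15.9 and 23.2 against 33.2, 12.3 and 11.5 (p = 0.8), again with overlapping groups.

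Within classes, edgeR called 0% of 14687 genes in chondrocyte-, fibrocartilage- and HTC-like cells together, 0% of 12344 in osteoblast-lineage-like cells and 0% of 18099 in stromal-like cells, and 0 of the 9, 8 and 9 members tested. At an unadjusted p under 0.05 there were 308, 911 and 255 genes, and DESeq2 called 2, 23 and 0. The p-values measure the spread between libraries. In the cartilage cells Ihh was at 1.03 ± 0.64, Pth1r at 0.81 ± 0.41 and Ptch1 at -0.77 ± 0.49 (adjusted p = 1 for each), in osteoblast-lineage-like cells Gli3 was at -0.77 ± 0.32 (adjusted p = 0.661) and Pth1r at 0.67 ± 0.31 (0.666), and in stromal-like cells Pthlh was at -1.38 ± 0.56 (adjusted p = 1). These sets pool classes whose make-up differed between libraries. Osteoprogenitor-like cells were 65, 120 and 288 of 197, 205 and 497 osteoblast-lineage-like cells in the controls. In the knockout libraries they were 21, 688 and 175 of 73, 2279 and 726. HTC-like cells were 105, 17 and 19 of 695, 583 and 590 cartilage cells against 51, 25 and 440 of 453, 52 and 1775. The part of this make-up in the differences by label was not tested. Of the 65 pathway genes, 0 were called in any of the 3 comparisons, with 55, 52 and 58 tested. The difference between HTC-like and the other cartilage cells itself depended on the label in 3 of 13424 genes (0.0223%), 339 at an unadjusted p under 0.05 and 1 by DESeq2, and in 0 of 9 members, with Hhip at 2.67 ± 0.95 and Pth1r at -1.25 ± 0.43 (adjusted p = 1 for both).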

How the data were processed

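Calluses at 14 dpf were dissociated and sequenced as 10x 3′ libraries, 3 per group. Per the labels, the authors used Cell Ranger 6.1.1 for replicate 1 of each group and 6.1.2 for the others, on GRCm38, to count UMIs. The deposited files give these counts as whole numbers for barcodes called as cells, with no normalization. Replicate 3 of both groups lists 55357 genes and the others 55450, and the 52081 shared genes held at least 97.8% of the UMIs of a library. Each library held 57626530 to 103784364 UMIs, and p-values measure the spread between these libraries, which may in part be technical.

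Cells under 500 UMIs, under 200 genes or over 20% mitochondrial UMIs were dropped, as were those with the highest Scrublet doublet scores (0.8% for every 1000 cells in the library). From 2000 variable genes without members, pathway genes, mitochondrial and rRNA-like genes, 30 components were integrated by RPCA in Seurat 5.3.0 (R 4.3.3) and clustered with leidenalg 0.10.2 (20 neighbours, resolution 0.8) in scanpy 1.11.5 (Python 3.11.15), giving 38 clusters of all cells (34 named) and 20 stromal clusters (15 named). A name needed 3 markers, each in 25% or more of the cells and at 2 times the median cluster (folds capped at 8, markers among the 10 leading genes taking precedence). These thresholds were chosen with the clusters, but not the genotypes, in view. The members, marker lists and pathway list were chosen with earlier results of these data known.

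Summed UMIs per library and class entered the two-sided quasi-likelihood F test of edgeR 4.0.16 after filterByExpr and TMM scaling, with Benjamini-Hochberg adjustment over all genes tested and a threshold of 0.05, in libraries with at least 10 cells, by group or with library as a block. The SE is the log2 fold change divided by the square root of F. The test was checked on simulated data. Log2 differences within a library added 0.5 to each count. Levels in all cells were compared by exact permutation in scipy 1.17.1, with a smallest p of 0.1. For groups that do not overlap, genes with at least 10 UMIs in 3 libraries were counted, and the 9 stromal classes were added to this count with their values in view. Every member was named. In each comparison of classes, up to 3 pathway genes higher and 3 lower with the largest fold past the threshold were named, and Cdon, Boc and counts by pathway group were added to them after their values were seen. One gene that this rule names is not reported here. The 3 genes most like Ihh, Pthlh, Pth1r and Gli1 by Pearson r, at a mean of at least 10 CPM, were named. Neighbours in an order were called apart where every library with at least 20 cells of both gave the same order. Replicate numbers were taken to pair the samples only if same-numbered libraries deviated together: their correlations were 0.248, -0.101 and -0.007 in cartilage cells, 0.375, 0.134 and 0.042 in the osteoblast lineage and 0.247, -0.101 and -0.188 in stromal-like cells, so they were not treated as pairs. In each set the first correlation, of the libraries numbered 1, was positive. These libraries also had the lowest median UMIs per barcode (2554 and 2728.5). Control library 2 with knockout library 3, of unlike number, gave 0.238, 0.164 and 0.329. What these libraries share was not tested. Alternatives were DESeq2 1.42.0, no filter on low counts, a stricter filter on cells (1000 genes, 10% mitochondrial UMIs), no integration, resolution 1.2, no doublet removal, a replicate block, leaving out each library or both libraries numbered 3, and the few-UMI cluster counted as chondrocyte-like, the last of these added with the data in view.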

Additional observations from a re-analysis of the deposited data

Results flagged for a closer look

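In 27 sets of 6 within-library differences, 1 library stood beyond Dixon's critical value in 2, where chance gives about 1 in 20. The log2 difference of Ihh between HTC-like and chondrocyte- and fibrocartilage-like cells was -0.77 in knockout library 2, against 2.28 to 3.83 in the other libraries. The log2 difference of Pth1r between osteoblast-lineage-like and chondrocyte- and fibrocartilage-like cells was -2.0 in the same library, against -0.90 to -0.32 in the others. In knockout library 2 these rest on 25 HTC-like, 16 chondrocyte-like and 11 fibrocartilage-like cells, and the part of these numbers in the differences was not tested.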

How the results depend on the processing

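Of 833 alternative values of single members, 722 kept their direction and their side of the threshold, 32 lost a call, 1 gained a call in the same direction and 78 changed sign. None of the 78 had been called, and 2 were called with the new sign, both for Hhip in the fibroblast group. Libraries differ in depth and in cells per class by large factors, and HTC-like cells number under 20 in 2 libraries. The cause of the changes below was not tested unless the setting itself shows it.

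Genes called by genotype in cartilage cells numbered 0, and 26 without the filter on low counts and 2 by DESeq2 (0 with each library left out). In the osteoblast lineage they numbered 0, 151 without the filter, 23 by DESeq2 and 0 to 26 with 1 library left out, with 26 without control library 1. In stromal-like cells they numbered 0 in every setting run. For HTC-like against chondrocyte-like cells 4319 became 1779 without the library block, 2279 without replicate 3 of both groups and 2441 to 4870 with 1 library left out (2561 without control library 1 and 2441 without knockout library 3). For the osteoblast lineage 4845 became 2845, 2860 and 3515 to 5553, and for the fibroblast group 6257 became 3683 without the block and 4913 to 6870 with 1 library left out. The interaction's 3 genes became 1 by DESeq2 and 0 to 12 with 1 library left out (0 without control library 1, 12 without knockout library 1 and 6 without knockout library 2). With a replicate block, 0 genes were called by genotype in each of the 3 comparisons, and Pthlh in stromal-like cells was at -1.5, so the paired fit changed no call.

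Values that changed sign were as follows, as log2 differences unless stated. By genotype in cartilage cells, Smo was 0.15 without replicate 3 of both groups and 0.02 with doublets kept. In the osteoblast lineage, Ptch1 was 0.06 without the filter, 0.02 by DESeq2, 0.01 with the stricter filter on cells, 0.05 without integration and 0.10 with doublets kept, Smo was 0.07 without the filter and 0.03 without replicate 3 of both groups, Gli2 was -0.08 without replicate 3 of both groups and -0.04 without integration, and Ihh was -1.05 without replicate 3 of both groups. In stromal-like cells, Ihh was -0.27 with the replicate block, and without replicate 3 of both groups Ihh was -1.48, Gli2 -0.13, Gli3 0.11 and Hhip -0.39. In HTC-like cells Pth1r was -0.03 without the block. In the osteoblast lineage against cartilage, Smo was 0.01 with the stricter filter, 0.05 at resolution 1.2 and 0.04 with the few-UMI cluster counted, and Gli1 was -0.02 without integration and -0.07 with doublets kept. In the fibroblast group, Gli3 was -0.01 without replicate 3 of both groups, -0.09 with the stricter filter, -0.05 without integration and -0.05 with doublets kept, Hhip was 1.46, 1.1 and 0.88 under the last 3 of these, and Gli1 was -0.06 without integration.

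With 1 library left out, signs changed within these ranges. By genotype in cartilage cells Smo ran from -0.11 to 0.13 and Pthlh from -1.26 to 0.01. In the osteoblast lineage Ihh ran from -0.73 to 2.36, Ptch1 from -0.65 to 0.44, Smo from -0.16 to 0.10, Gli1 from -0.59 to 0.30, Gli2 from -0.08 to 0.46 and Hhip from -0.08 to 1.75. In stromal-like cells Ihh ran from -0.96 to 2.33, Ptch1 from -0.51 to 0.06, Smo from -0.03 to 0.16, Gli1 from -0.34 to 0.21 (Ptch1 -0.53 and Gli1 -0.47 without replicate 3 of both groups), Gli3 was as low as -0.6 without knockout library 1, and Gli2 ran from -0.11 to 0.41 and Hhip from -0.16 to 0.94. Pth1r ran from -0.06 to 0.44 in HTC-like cells, Gli3 from -0.02 to 0.17 and Smo from -0.08 to 0 in the osteoblast lineage against cartilage, and Gli3 from -0.02 to 0.14 and Hhip from -0.61 to 0.17 in the fibroblast group. In CPM in all cells, Ihh ran from -25.3 to 75.2, Ptch1 from -65.4 to 45.3, Smo from -7.18 to 14.2, Gli1 from -4.72 to 4.73, Gli2 from -0.861 to 2.86, Gli3 from -10.1 to 0.784 and Hhip from -2.40 to 7.56.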

Other observations

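The other hedgehog ligands and PTH family members were looked for in the same cells. Shh, Pth and Pth2 had 0 UMIs in all 6 libraries. Dhh, the Desert hedgehog ligand, had 1179 UMIs, of which 78.8% came from endothelial-like cells, at 16.5 ± 4.75 CPM (SD, n = 6 libraries), with 10.6 in the lowest library and 24.3 in the highest. Outside endothelial-like cells, Dhh stood at 0.325 ± 0.288 in neutrophil-like cells and at 1.07 ± 1.02 in chondrocyte-like cells. Ihh also reached 138.5 ± 138.3 CPM in the unnamed cluster of few UMIs, which was led by Col10a1 and Hapln1 together with the myeloid genes Lyz2 and F13a1. This cluster gave 595 Ihh UMIs (1.83%), and the unnamed clusters outside the stroma gave 758 (2.33%).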
